A study of Mus musculus with 15 samples.

Results

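The cytosolic ribosomal protein genes of mouse cortex were followed across a presenilin knockout and a chronic nicotine exposure. They were taken as every row whose symbol is Rpl, Rps or Rplp followed by a number, with at most 1 further letter a, x or l, plus Rpsa. This gave 81 of 21878 rows, 31 of the small subunit and 50 of the large subunit. Of these, 78 genes passed the filter for testing, which asked for at least 1 FPKM in at least 3 libraries, as did 12728 rows in all. FPKM is a level per length, normalised for the length of the gene model and the mapped fragments of the library.

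The 15 libraries came from the prefrontal forebrain cortex of mice that entered the experiment at 8 months of age and drank their assigned fluid for 3 months before tissue was taken, after behaviour tests. The groups were Presenilin 1/2 double knockout mice (DKO) with nicotine in the drinking water at 100 µg/ml (n = 3), DKO mice with plain water (n = 4), wild-type C57BL6/J mice (WT) with nicotine at the same dose (n = 4) and WT mice with plain water (n = 4). The series title calls the knockout conditional, and the labels name no promoter or cell type for it. The labels do not say that each library is a separate mouse, so p-values measure the spread between libraries, which may be technical.

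The ribosome is built from ribosomal RNA and a fixed set of proteins, nearly all of which are present once in each particle. Ribosomal protein mRNAs are short, abundant and begin with a run of pyrimidines, the terminal oligopyrimidine or TOP motif, through which mTORC1 and LARP1 control their translation. Neurons use ribosomes in the cell body and in dendrites, and several ribosomal proteins also act outside the ribosome, such as Rpl5 and Rpl11 on the p53 regulator Mdm2.

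Start-site sequences are shown for the gene that fell (Rpsa), for 5 genes that rose in at least 1 genotype comparison (Rplp0, Rpl10, Rpl13a, Rpl34 and Rps27l), and for Rps27, the paralogue of Rps27l. Each window is 100 bases long, 70 before and 30 from the RefSeq start site onwards, read 5′ to 3′ on the gene's own strand (build GRCm38.p6). Capitals mark the longest run of C and T in the last 60 bases, wherever it lies relative to the start. The marked run lies before the listed start in Rpl10 and Rps27l and after it in Rpsa, Rplp0 and Rpl13a. It spans the start in Rpl34 and Rps27. The capitals are therefore not a mark of a TOP motif. Rpsa lies at chr9:120127696-120127795 (plus strand), Rplp0 at chr5:115559397-115559496 (plus), Rpl10 at chrX:74270746-74270845 (plus), Rpl13a at chr7:45128716-45128815 (minus), Rpl34 at chr3:130730308-130730407 (minus, the downstream of 2 listed starts), Rps27l at chr9:66946016-66946115 (plus, the upstream of 2) and Rps27 at chr3:90213619-90213718 (minus).
Rpsa: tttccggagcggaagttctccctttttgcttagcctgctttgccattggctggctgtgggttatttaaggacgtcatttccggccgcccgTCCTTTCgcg
Rplp0: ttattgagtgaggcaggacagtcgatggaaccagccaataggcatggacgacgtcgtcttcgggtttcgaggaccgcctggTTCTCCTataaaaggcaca
Rpl10: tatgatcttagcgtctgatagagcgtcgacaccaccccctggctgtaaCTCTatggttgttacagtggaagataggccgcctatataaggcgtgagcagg
Rpl13a: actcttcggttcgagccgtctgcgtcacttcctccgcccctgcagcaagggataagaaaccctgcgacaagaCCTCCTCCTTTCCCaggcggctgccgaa
Rpl34: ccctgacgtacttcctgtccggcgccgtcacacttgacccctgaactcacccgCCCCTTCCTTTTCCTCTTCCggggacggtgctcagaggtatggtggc
Rps27l: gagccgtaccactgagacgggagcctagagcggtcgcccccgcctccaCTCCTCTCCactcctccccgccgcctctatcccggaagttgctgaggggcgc
Rps27: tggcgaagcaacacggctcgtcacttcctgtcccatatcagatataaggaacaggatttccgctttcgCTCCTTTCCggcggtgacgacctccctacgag

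The marked run was 7 bases in Rpsa, 7 in Rplp0, 4 in Rpl10, 14 in Rpl13a, 20 in Rpl34, 9 in Rps27l and 9 in Rps27. RefSeq start-site windows were matched for 61 of the 81 genes, in 73 windows, against 32851 windows of 27025 genes. Within 30 bases of the start on either side, the longest run of C and T had a median of 8 bases in ribosomal protein windows and 5 bases in all windows. A run of at least 8 bases stood in 37 ribosomal protein windows (50.7%) and in 22.9% of all windows. Over the whole 300-base window, on both strands, the letters CCGGAAG, the core of an ETS-family site, stood in 26 ribosomal protein windows (35.6%) and in 8.86% of all windows. The letters AAGATGGC, the core of a YY1 site, stood in 7 (9.59%) and in 2.75% of all. The windows of Rpsa, Rpl34 and Rps27l (for the last 2, the start shown) held the ETS letters. Those of Rps27 and Rpl13a held the YY1 letters, and those of Rplp0 and Rpl10 neither. The other listed starts of Rpl34 and Rps27l had shorter runs, of 8 and 5 bases, and lacked the ETS letters. These are matches of letters only.

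The libraries held 16334914 to 19469257 reads in genes, recovered as whole numbers from the deposited FPKM values, and no 2 libraries were identical. Psen2, one of the genes knocked out, averaged 1.57 ± 0.20 FPKM in DKO nicotine, 1.51 ± 0.18 in DKO water, 6.48 ± 0.57 in WT nicotine and 6.44 ± 0.77 in WT water libraries (SD). The summed level of 4 Y-linked genes was above 5 FPKM in 2 of 3 DKO nicotine, 4 of 4 DKO water, 0 of 4 WT nicotine and 4 of 4 WT water libraries, so in WT mice nicotine and the absence of Y-linked RNA cannot be told apart. Cell type markers moved with genotype: all 7 microglial markers and all 5 astrocyte markers were called higher in DKO water than WT water libraries, and 3 of 4 excitatory neuron markers lower. Also called higher there were 4 of 5 oligodendrocyte, 3 of 3 inhibitory neuron and 2 of 3 endothelial markers. So was 1 of 3 striatal markers (median of the 3 striatal markers +0.66), and 0 of 2 markers of oligodendrocyte precursors were called. The shares over all tested genes were 25.5% higher and 12.4% lower. With nicotine in both groups, 5 of 7 microglial, 5 of 5 astrocyte and 3 of 5 oligodendrocyte markers were called higher. So were 1 of 3 inhibitory neuron and 1 of 3 endothelial markers, and 3 of 4 excitatory neuron markers were called lower. No striatal or precursor marker was called, and the shares over all tested genes were 24.6% higher and 11% lower. The summed microglial level was 296 to 350 FPKM in DKO nicotine, 319 to 348 in DKO water, 125 to 138 in WT nicotine and 127 to 140 in WT water libraries. The liver marker was at most 0.089 FPKM in any library. The excitatory neuron sum was 1122 to 1198, 1059 to 1181, 1323 to 1413 and 1312 to 1357 FPKM in the same order. In bulk tissue, fewer cells of a type and less RNA per cell cannot be told apart, and the part of cell composition in the results below was not tested.

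The highest mean levels over all libraries were those of Rplp1 (595 FPKM), a protein of the P stalk that binds elongation factors, Rpl41 (534 FPKM), Rps29 (477 FPKM), Rps15 (427 FPKM) and Rpl26 (361 FPKM). The median tested gene had 149 FPKM, and 67 of the 78 lay between 50 and 400 FPKM. At the low end were Rpl32l (0.890 FPKM, about 9.67 reads a library), Rps27l (6.05 FPKM), Rpl21 (21.6 FPKM), Rps20 (25.1 FPKM) and Rps15a (26.5 FPKM). The last 3 have gene models of 3002, 3446 and 5136 bases, where the median tested ribosomal protein gene had 787.5 bases and the median of all tested genes was 3564 bases. Level and gene-model length had a Spearman rho of -0.51 across the 78 genes, a description over genes that share every library and whose level is itself divided by length.

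The 3 genes that missed the filter are paralogues known mainly from testis or muscle. Rpl10l was listed at 0 in all libraries. Rpl39l reached at most 0.25 FPKM, and Rpl3l, the striated muscle paralogue of Rpl3, at most 0.23 FPKM, while Rpl10, Rpl39 and Rpl3 averaged 191, 112 and 299 FPKM. Rps27l, a p53-responsive paralogue of Rps27, had 6.05 FPKM where Rps27 had 230 FPKM.

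The whole set took a slightly larger part of the DKO transcriptomes, with overlap between the groups. Ribosomal protein genes held 4.80, 4.45 and 4.85% of the summed FPKM in DKO nicotine libraries, 4.74, 4.67, 4.43 and 4.63% in DKO water libraries, 4.31, 4.66, 4.39 and 4.14% in WT nicotine libraries, and 4.42, 4.68, 4.24 and 4.15% in WT water libraries. The means were 4.70 ± 0.22% in DKO nicotine, 4.62 ± 0.13% in DKO water, 4.37 ± 0.22% in WT nicotine and 4.37 ± 0.23% in WT water libraries (SD). Replicate 2 of each WT group lay among the DKO values. As a share of reads the set was 1.02 to 1.24% over the 15 libraries.

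**Figure D1:**
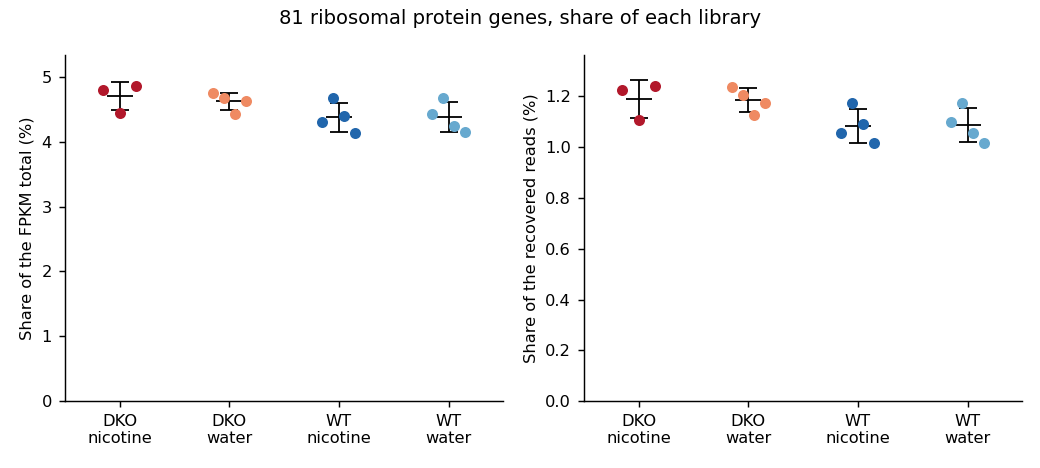
Share of the summed FPKM (left, %) and of the recovered reads (right, %) held by the 81 ribosomal protein genes, 1 point a library, with the mean and SD of each group as black bars. The DKO groups average 4.70 and 4.62% of the FPKM total and both WT groups 4.37%, and the ranges overlap.

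The first question the design asks is how loss of the presenilins changed these genes in mice on plain water. In DKO water against WT water libraries, 40 of the 78 tested genes rose, 1 fell (Rpsa) and 37 were not called at an adjusted p below 0.05. Over all tested genes 25.5% were called higher and 12.4% lower, beside 51.3% of the ribosomal protein genes called higher. The median change of the 78 genes was +0.15 on the log2 scale, a rise of 10.9%, where the median of all tested genes was +0.05. The lower and upper quartiles of the changes were +0.08 and +0.20. By subunit, 18 of 31 small-subunit genes rose and 1 fell, with a median of +0.17, and 22 of 47 large-subunit genes rose, with a median of +0.14. In 24 genes every DKO water library lay above every WT water library, which is 30.8% of the set beside 24% of all tested genes, and in 1 gene, Rpsa, every one lay below, beside 12.5% of all.

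DKO libraries had a higher FPKM total (303382 to 319232) than WT libraries (295704 to 305646), so the same comparison was made after rescaling each library by its median ratio to the geometric mean of all libraries. On that scale 20 of the 78 genes rose, all of them among the 40, and Rpsa fell; the background was 19.1% called higher and 18.4% lower. The share of the set called higher was then 25.6%. The median change of the set was +0.10, a rise of 6.83%, where that of all tested genes was +0.00027. Of the 78 genes, 68 still had a change above 0. The genes whose call depended on the scale included Rplp1 (+0.15, SE 0.05, adjusted p = 0.037 as deposited; +0.10 and adjusted p = 0.14 rescaled) and Rpl13a (+0.23, SE 0.08, adjusted p = 0.031 as deposited; +0.17 and adjusted p = 0.079 rescaled).

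The count also changed when single libraries were left out, and the share of all tested genes called in those fits was not counted. On the deposited scale the count ran from 19 to 45. It was 20 without DKO water replicate 1, 25 without DKO water replicate 2, 24 without WT water replicate 3 and 19 without WT water replicate 4. On the rescaled values, leaving out 1 library at a time gave 11 to 29 genes called higher, with 11 without DKO water replicate 1 or WT water replicate 4 and 13 without DKO water replicate 2 or WT water replicate 3, and Rpsa was the 1 gene called lower each time.

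The second question is whether the genotype difference looked alike in mice that drank nicotine. Y-linked RNA was present in 2 of 3 DKO nicotine and 0 of 4 WT nicotine libraries, so this comparison and the interaction partly mix genotype with the presence of Y-linked RNA, and its part in the values below was not tested; in the water comparison all 8 libraries had it. In DKO nicotine against WT nicotine libraries 30 of the 78 genes rose, again only Rpsa fell, and 47 were not called. The background was 24.6% called higher and 11% lower, beside 38.5% of the set called higher. The median change was +0.15, a rise of 11.2%, with +0.06 over all tested genes. After rescaling 15 genes rose, or 19.2% of the set, and Rpsa fell, beside 16.8% and 17.4% of all tested genes, so that the rescaled share called higher lay near its background. The rescaled median was +0.09 and that of all tested genes +0.0036. In 16 genes, 20.5% of the set, every DKO nicotine value lay above every WT nicotine value, as in 25.8% of all tested genes, and in Rpsa every value lay below, as in 11.8% of all. After rescaling, leaving out 1 library at a time gave 7 to 24 genes called higher, with 7 without DKO nicotine replicate 3, 9 without WT nicotine replicate 4 and 24 without replicate 2 of either group, and a median change of +0.06 to +0.13. On the deposited scale the count of 30 became 15 to 42. It was 15 without DKO nicotine replicate 3, 18 without DKO nicotine replicate 1 and 19 without WT nicotine replicate 4.

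The 2 genotype comparisons share no library. On the deposited scale 27 genes rose in both, which is 27 of the 40 and 27 of the 30, and after rescaling 12 genes did. Of all tested genes 25.5% were called higher in water and 24.6% in nicotine on the deposited scale. The share called higher in both was not counted, so the overlap cannot be read as particular to this set. Across the 78 genes the 2 sets of changes had a Pearson r of 0.86 and a Spearman rho of 0.87, and 0.84 and 0.86 over the 74 genes left without Rpsa, Rpl34, Rps27l and Rpl32l. These are descriptions over genes that share libraries. A given gene therefore had much the same rank in both comparisons: Rpl10, Rplp0, Rps9, Rpl18, Rpl39 and Rps12 lay high in both, and Rpl37, Rpl12, Rpl4 and Rps15 had changes between -0.01 and +0.05 in both on the deposited scale.

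**Figure D2:**
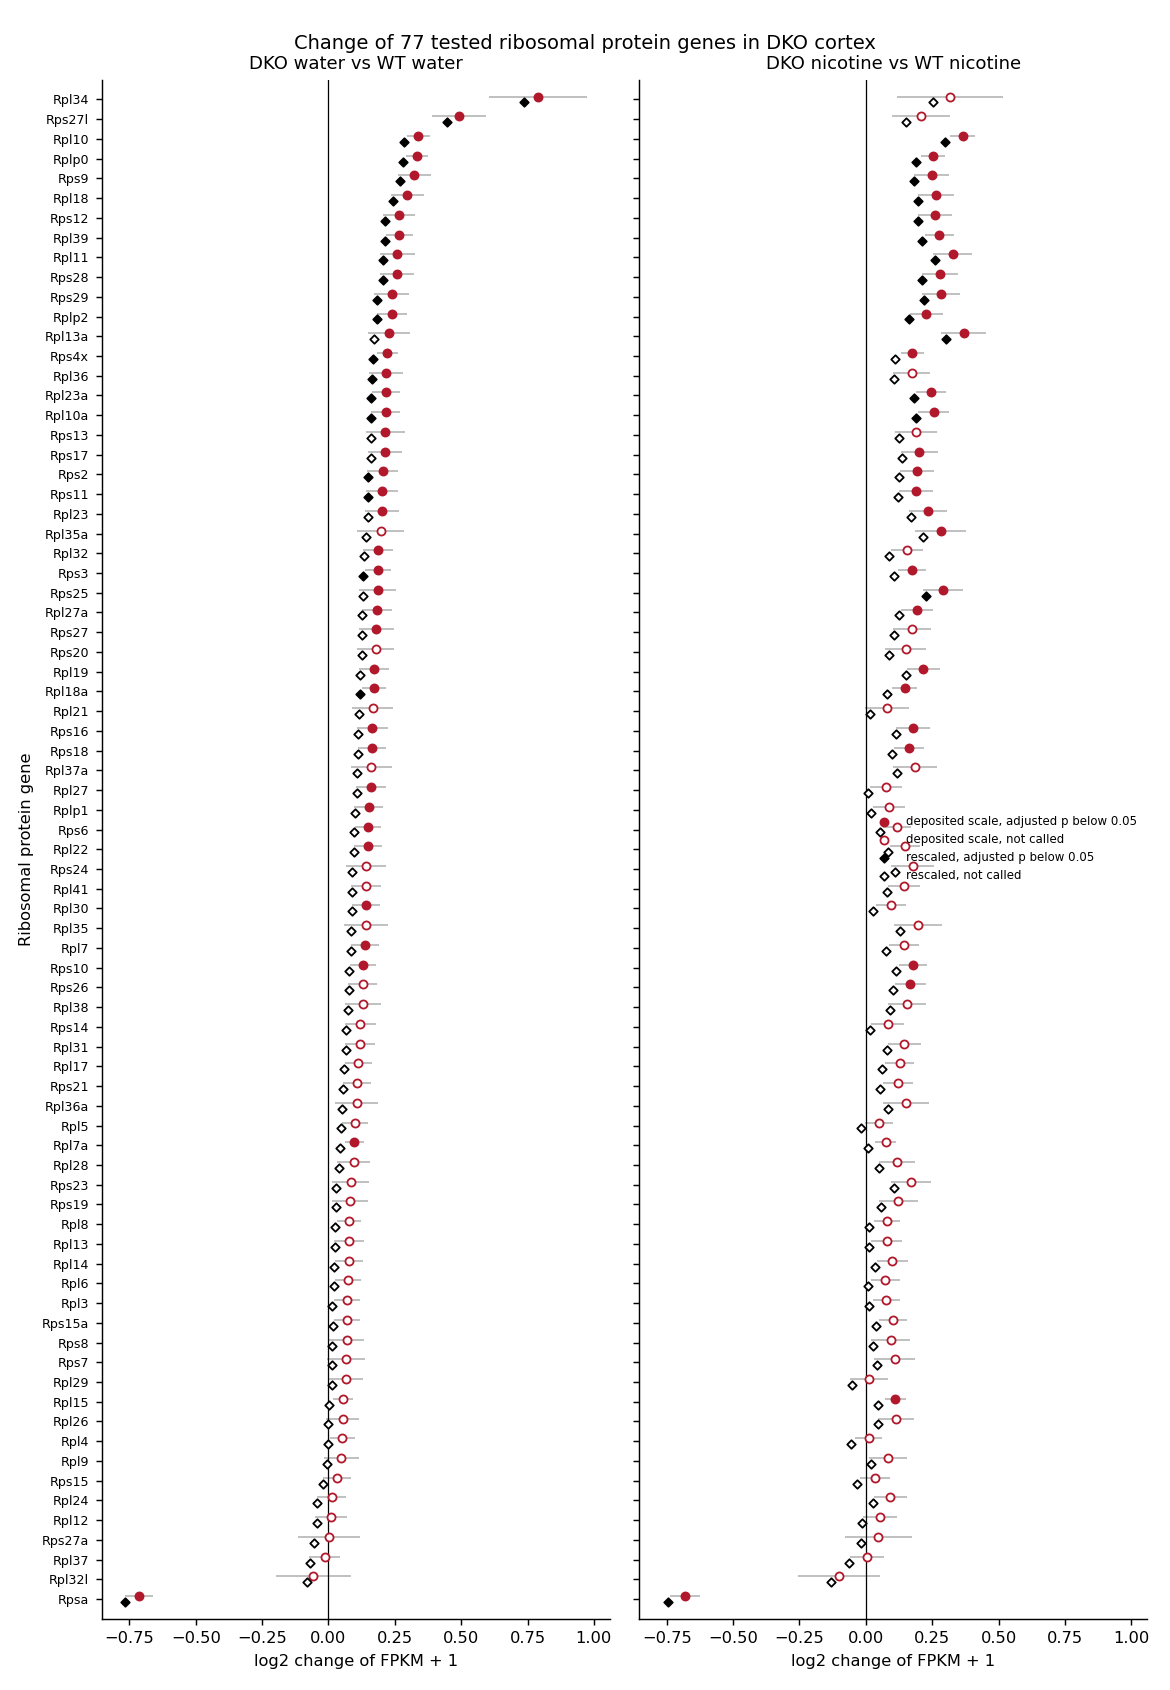
The log2 change of 77 of the 78 tested ribosomal protein genes (rows, ordered by the water comparison) in DKO water against WT water (left) and DKO nicotine against WT nicotine (right). Red circles are the deposited scale with 1 SE, black diamonds the rescaled values, and filled symbols have an adjusted p below 0.05; Rpsa stands alone at the bottom, at -0.71 and -0.68.

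Rpsa, the small-subunit protein SA that also serves as the precursor of a laminin receptor, was the exception to the upward shift. Its level was 104, 95.2 and 96.5 FPKM in DKO nicotine libraries and 101, 96.2, 91.6 and 94.4 FPKM in DKO water libraries. It was 154, 177, 158 and 147 FPKM in WT nicotine libraries and 159, 167, 152 and 153 FPKM in WT water libraries. The DKO and WT values did not overlap, the highest DKO value being 104 and the lowest WT value 147 FPKM. Rpsa fell by 0.71 on the log2 scale in DKO water against WT water (SE 0.05, adjusted p = 1.54e-08), which is 39% lower, and by 0.68 in DKO nicotine against WT nicotine (SE 0.06, adjusted p = 8.79e-08), which is 37.6% lower. Rescaling moved the changes to -0.77 and -0.75.

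No other row of the files is annotated as a copy of Rpsa. The gene lies on chromosome 9 at 120127766 to 120132369. Of the 19 other tested genes that start within 1 Mb of it, 6 were called higher and 5 lower in DKO water libraries. Their median was +0.01, and 25.5% of all tested genes were called higher and 12.4% lower. Those that moved most in water were Cx3cr1, the fractalkine receptor and a microglial marker (+1.38, SE 0.09, adjusted p = 3.96e-09), Acaa1b (+0.71, SE 0.11), Acaa1a, a peroxisomal thiolase (-0.67, SE 0.05), and Csrnp1 (-0.60, SE 0.14). In DKO nicotine against WT nicotine libraries 4 of the 19 were called higher and 2 lower, near the 24.6% and 11% of all tested genes. There Cx3cr1 had +1.21, Acaa1b +0.84 and Acaa1a -0.69, and Csrnp1 was not called (-0.03, SE 0.15, adjusted p = 0.89). Rpl14, a large-subunit gene in the same window, was not called (+0.08, SE 0.05).

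Among the genes that rose, the smallest p-values were those of Rplp0 and Rpl10. Rplp0, the P-stalk base and a common reference gene in PCR assays, had 141, 136 and 150 FPKM in DKO nicotine libraries and 149, 149, 142 and 141 FPKM in DKO water libraries. It had 118, 122, 122 and 114 FPKM in WT nicotine libraries and 116, 121, 115 and 107 FPKM in WT water libraries. The DKO libraries were all above the WT libraries. Its change was +0.33 in the water comparison (SE 0.04, adjusted p = 7.60e-06) and +0.25 in the nicotine comparison (SE 0.04, adjusted p = 3.21e-04). The other P-stalk genes moved less. Rplp2 rose by 0.24 (SE 0.06, adjusted p = 0.0034) and 0.23 (SE 0.06, adjusted p = 0.0084), and Rplp1 had +0.15 (SE 0.05, adjusted p = 0.037) and +0.09 (SE 0.06, adjusted p = 0.27) in water and nicotine.

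Rpl10, an X-linked protein near the peptidyl transferase centre that joins the large subunit late in assembly, was the other. Its level was 229, 214 and 226 FPKM in DKO nicotine libraries and 207, 209, 211 and 214 FPKM in DKO water libraries. WT nicotine libraries had 176, 182, 172 and 163 FPKM and WT water libraries 167, 181, 158 and 158 FPKM. The groups did not overlap by genotype. The change was +0.34 in water (SE 0.04, adjusted p = 1.40e-05) and +0.36 in nicotine (SE 0.05, adjusted p = 1.86e-05).

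Of the other X-linked genes, in comparisons where Y-linked RNA differs between the groups in nicotine and not in water, Rps4x and Rpl39 rose in both comparisons and Rpl36a in neither. Rpl39, which lines the exit tunnel, changed by +0.27 (SE 0.05, adjusted p = 6.06e-04) and +0.28 (SE 0.06, adjusted p = 9.57e-04). Rps4x changed by +0.22 (SE 0.04, adjusted p = 3.96e-04) and +0.18 (SE 0.04, adjusted p = 0.0050), and the second call was lost on rescaling (+0.11, adjusted p = 0.051). Rpl36a had +0.11 (SE 0.08) and +0.15 (SE 0.09).

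Rps9, an early-assembling small-subunit protein, rose to a mean of 118 ± 4.94 FPKM in DKO water libraries, against 94.3 ± 5.88 in WT water libraries (SD, n = 4 each), a change of +0.32 (SE 0.06, adjusted p = 4.93e-04), and by 0.25 in nicotine (SE 0.07, adjusted p = 0.0072). Rpl11, the partner of Rpl5 in the particle that carries the small 5S RNA, averaged 156 ± 12.5 FPKM in DKO nicotine and 124 ± 7.10 FPKM in WT nicotine libraries, a change of +0.33 (SE 0.07, adjusted p = 0.0021). Rpl5 itself was not called in either comparison (+0.10, SE 0.05 in water and +0.05, SE 0.05 in nicotine).

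Rpl13a, which is also known from a complex that silences translation of inflammatory mRNAs, had the largest called rise in nicotine. Its level was 332, 289 and 340 FPKM in DKO nicotine libraries and 221, 291, 242 and 240 FPKM in WT nicotine libraries, with replicate 2 of both groups overlapping. The change was +0.37 (SE 0.09, adjusted p = 0.0029).

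Rps27l had the second largest rise in water, at a low level. It had 6.87, 5.88 and 7.43 FPKM in DKO nicotine libraries, 7.78, 7.62, 6.96 and 6.19 FPKM in DKO water libraries, 4.92, 6.35, 6.90 and 4.73 FPKM in WT nicotine libraries, and 5.45, 4.76, 4.51 and 4.40 FPKM in WT water libraries. DKO water and WT water libraries did not overlap, while WT nicotine replicates 2 and 3 lay among the DKO values. The change was +0.49 in water (SE 0.10, adjusted p = 0.0010) and +0.21 in nicotine, not called (SE 0.11, adjusted p = 0.15). The difference between these 2 changes was -0.28 (SE 0.15, adjusted p = 0.74). Rps27, its abundant paralogue, changed by +0.18 in water (SE 0.07, adjusted p = 0.044) and +0.17 in nicotine (SE 0.07, adjusted p = 0.074).

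Rpl34, a large-subunit protein, had the largest rise in water, and its WT values fell into 2 sets. DKO nicotine libraries had 69.8, 58.5 and 69.5 FPKM and DKO water libraries 72.5, 73.7, 64.6 and 71.3 FPKM. WT nicotine libraries had 34.8, 68.6, 59.5 and 53.6 FPKM and WT water libraries 35.8, 62.9, 34.3 and 34.2 FPKM. Thus 4 WT libraries were under 40 FPKM (nicotine replicate 1 and water replicates 1, 3 and 4), and the other 4 lay at or near the DKO range. The change was +0.79 in water (SE 0.18, adjusted p = 0.0029) and +0.32 in nicotine, not called (SE 0.20, adjusted p = 0.23), with a difference of -0.47 between the 2 (SE 0.27, adjusted p = 0.76). Without WT water replicate 2 the change in water was +1.00.

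The row of a pseudogene, Rpl34-ps1 on chromosome 6, ran the other way in the same libraries. It had 6.49, 6.19 and 7.78 FPKM in DKO nicotine and 5.36, 8.07, 6.76 and 8.89 FPKM in DKO water libraries. It had 26.4, 7.85, 4.96 and 8.54 FPKM in WT nicotine and 33.2, 6.69, 31.5 and 32.2 FPKM in WT water libraries. The 4 WT libraries under 40 FPKM for Rpl34 were the 4 above 26 FPKM for Rpl34-ps1. Across the 8 WT libraries the log2 read shares of the 2 rows had a Pearson r of -0.96, as a description. Rpl34-ps1 was called lower in DKO water against WT water (-1.50, SE 0.44, adjusted p = 0.013).

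Reads from a gene and its pseudogene can be hard to tell apart, and no source used here says how such reads were placed. With the reads of both rows summed, DKO water libraries had 47.3 to 54.1 RPM (reads per 1000000 in genes) and WT water libraries 36.6 to 46.1, and the log2 difference was +0.39, where Rpl34 alone gave +0.80. In nicotine the sum was 42.8 to 51.1 in DKO and 34.9 to 50.5 in WT libraries, a log2 difference of +0.20 where Rpl34 alone gave +0.32. The level of Rpl34 is therefore uncertain in the 4 WT libraries.

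**Figure D3:**
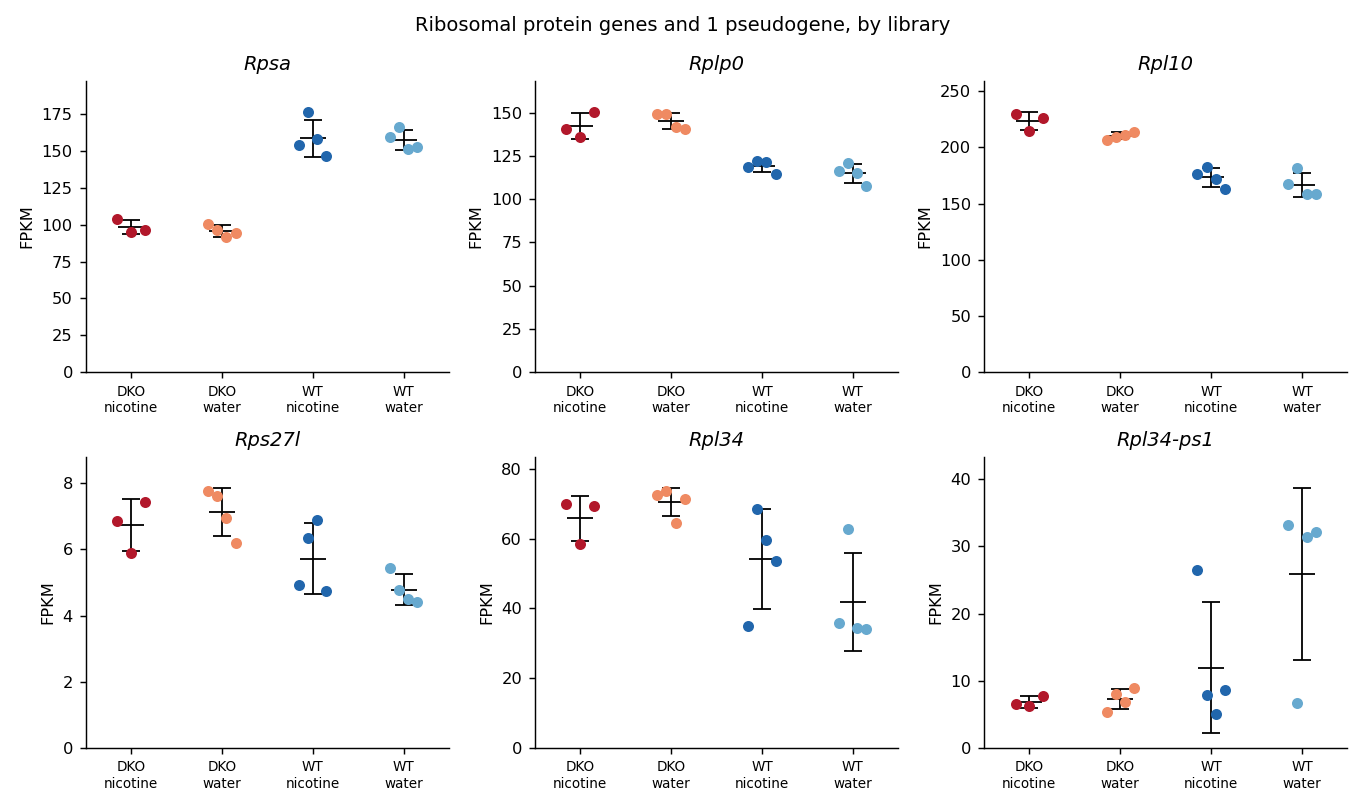
Level in each library (FPKM, y axes from 0) of Rpsa, Rplp0, Rpl10, Rps27l, Rpl34 and the pseudogene Rpl34-ps1, 1 point a library, with the mean and SD of each group in black. Rpsa is lower and Rplp0 and Rpl10 higher in every DKO library, and the 4 WT libraries low for Rpl34 are the 4 high for Rpl34-ps1.

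With Rpl34-ps1, 6 pairs of a ribosomal protein gene and a row annotated as its copy were compared in this way. With the reads of Rps27rt, the retrogene of Rps27, added, the water difference of Rps27 was +0.21 in log2 RPM, beside +0.18 for Rps27 alone. For Rpl37, Rps6, Rpl31 and Rpl27, adding the copy moved either genotype difference by at most 0.012. Rps27rt itself rose, with 13.9 ± 1.01 FPKM in DKO water and 8.32 ± 0.87 in WT water libraries (+0.68, SE 0.10, adjusted p = 5.55e-05).

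Between nicotine and water libraries no ribosomal protein gene passed the threshold in either genotype, on the deposited or the rescaled values. In WT, Y-linked RNA was present in 0 of 4 nicotine and 4 of 4 water libraries, so nicotine and its absence cannot be told apart there. In WT nicotine against WT water libraries on the deposited scale 0 of 78 genes were called by limma, 0 had an unadjusted p below 0.05 (1 after rescaling, Rps27l, unadjusted p = 0.047, not called), and the median change was -0.0023; 0.173% of all tested genes were called in either direction. The genes with the smallest p were Rps27l (+0.21, SE 0.10, unadjusted p = 0.055) and Rpl34 (+0.37, SE 0.18, unadjusted p = 0.059) on the upper side, and Rpl13a (-0.10, SE 0.08) and Rpl15 (-0.04, SE 0.04) on the lower. In DKO nicotine against DKO water libraries, where Y-linked RNA was present in 2 of 3 and 4 of 4, 0 of 78 were called, 0 had an unadjusted p below 0.05, and the median was +0.0030, beside 0.157% of all tested genes. There Rpl10 had +0.09 (SE 0.05) and Rpl24 +0.09 (SE 0.06), and Rpl27 -0.07 (SE 0.06) and Rps9 -0.06 (SE 0.07). For the difference between the genotype effects with and without nicotine, 0 of 78 genes were called or had an unadjusted p below 0.05, beside 0.0157% of all tested genes called, with a median of +0.01. The voom fit on recovered reads also called none in these 3 comparisons. The changes with nicotine ran from -0.10 to +0.37 in WT and from -0.10 to +0.09 in DKO libraries.

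Gene length ran with the genotype change over the whole table. Among all other tested genes the median change in DKO water against WT water was +0.16 for 560 genes with gene models under 1000 bases, +0.10 for 1000 to under 2000 bases, +0.07 for 2000 to under 4000 bases and +0.0022 for 5510 genes of 4000 bases or more. Ribosomal protein genes under 1000 bases, 51 of the 78, had a median of +0.14, close to that of other short genes. Of them 51% were called higher, beside 37.3% of the other short genes, in sets not matched for level. The quartiles of the ribosomal protein genes were narrower, +0.08 to +0.21 beside +0.05 to +0.31. The 20 genes of 1000 to under 2000 bases had a median of +0.17 and the 6 of 2000 to under 4000 bases +0.15. In nicotine the medians were +0.16 for ribosomal protein genes and +0.14 for other genes under 1000 bases. Within the set, change in water and length had a Spearman rho of -0.12. The part of gene length, or of what moves with it, in the rise of the set was not tested.

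**Figure D4:**
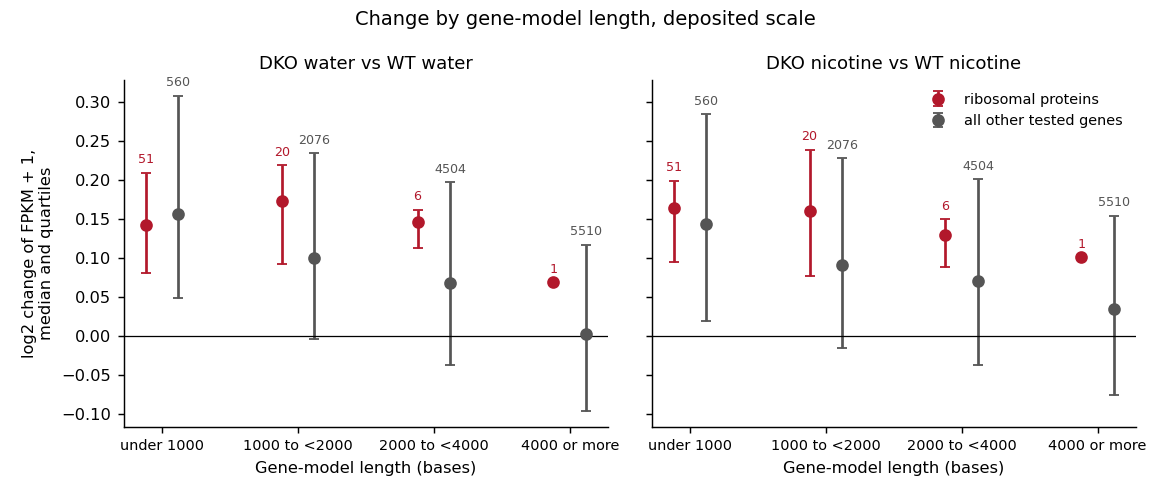
Median log2 change (deposited scale) with lower and upper quartiles, by gene-model length in bases, for ribosomal protein genes (red) and all other tested genes (grey), with the number of genes above each bar. The medians of other genes run from +0.16 under 1000 bases to +0.0022 at 4000 bases or more in the water comparison, and the ribosomal protein medians between +0.07 and +0.17.

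Within groups the ribosomal protein genes varied together from library to library. After each group mean was taken off, the mean pairwise correlation was 0.72 over the 78 genes, 0.19 over the 560 other genes under 1000 bases and 0.0081 over all tested genes. The mean deviation of the set was +0.12 in WT water replicate 2 and +0.11 in WT nicotine replicate 2 at the top, and -0.11 in DKO nicotine replicate 2, -0.09 in WT water replicate 4 and -0.09 in WT nicotine replicate 4 at the bottom, beside a median genotype change of +0.15. Across the 15 libraries it ran with the mean deviation of the other short genes (Pearson r = 0.96) and against that of genes of 4000 bases or more (r = -0.62); these are descriptions over points that share library and depth.

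**Figure D5:**
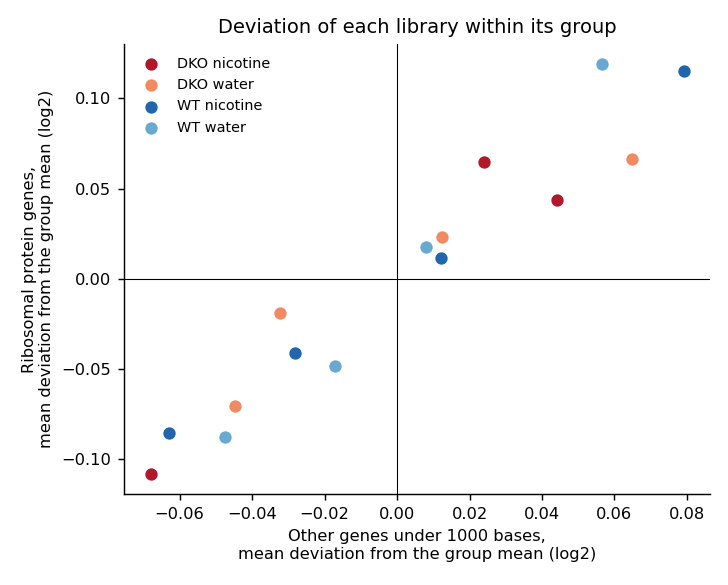
Mean deviation of each of the 15 libraries from its group mean (log2 scale) for the 78 ribosomal protein genes (y) and the 560 other genes under 1000 bases (x), coloured by group. The points run along a line from about -0.11 to +0.12 on the y axis.

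Genes that work beside the ribosomal proteins were counted in the same fits, DKO against WT, where 25.5% of all tested genes were called higher and 12.4% lower in water and 24.6% and 11% in nicotine. Of 8 tested relatives outside the naming rule, Rps27rt, Fau and Rack1 rose in both comparisons and 0 fell. Fau, whose product is the small-subunit protein eS30 fused to a ubiquitin-like domain, had +0.29 in water (SE 0.08, adjusted p = 0.0077), and Rack1, a scaffold on the small subunit, +0.18 (SE 0.04, adjusted p = 0.0018). Of 10 elongation factors and related genes, 4 rose and 0 fell in water, among them Tpt1 (+0.31, SE 0.05, adjusted p = 1.13e-04) and Eef1a1 (+0.22, SE 0.03, adjusted p = 1.14e-04), both classical TOP mRNAs. In nicotine 3 of the 10 rose and 1 fell, Eef1a2, the neuronal elongation factor (-0.14, SE 0.04, adjusted p = 0.011).

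Initiation factors were divided, with 6 of 35 higher and 5 lower in water and 3 and 4 in nicotine. Pabpc1, the poly(A)-binding protein, rose (+0.27, SE 0.03, adjusted p = 6.18e-06) and Eif4h, a helper of the Eif4a helicase, fell (-0.15, SE 0.03, adjusted p = 0.0016). Mitochondrial ribosomal proteins had 15 of 77 higher and 3 lower in water, with a median of +0.07, and 12 and 7 in nicotine, with a median of +0.05. Mrpl52 (+0.45, SE 0.09, adjusted p = 0.0011) and Mrpl34 (+0.33, SE 0.07, adjusted p = 0.0019) were among those that rose in water, and Mrpl50 (-0.20, SE 0.05, adjusted p = 0.0036) fell. The difference between these counts and those of the cytosolic set was not tested.

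Next came the machinery that makes and moves ribosomal subunits. Of 48 biogenesis factors 3 were called higher and 3 lower in water (median -0.0070), and 4 and 4 in nicotine. Ltv1, a small-subunit assembly factor, rose (+0.23, SE 0.06, adjusted p = 0.0052) and Ncl, nucleolin, fell (-0.14, SE 0.04, adjusted p = 0.010). Of 20 RNA polymerase I subunits and factors, 3 rose and 0 fell in water, and 3 rose and 2 fell in nicotine. Of 27 genes of TOP mRNA control and mTORC1 signalling, 2 rose and 4 fell in water, and 4 rose and 1 fell in nicotine. Among these Myc, a transcription factor for ribosome genes, rose to 1.96 ± 0.23 FPKM in DKO water, against 1.09 ± 0.09 in WT water libraries (+0.50, SE 0.06, adjusted p = 1.27e-05), and Mycn fell (-0.24, SE 0.06, adjusted p = 0.0083). Of 24 chaperones and export factors, 7 rose and 2 fell in water, and 5 rose and 1 fell in nicotine. Naca (+0.30, SE 0.04, adjusted p = 5.03e-05) and Btf3 (+0.31, SE 0.06, adjusted p = 3.93e-04), which form the complex on nascent chains, rose in water, and Ipo9, an import receptor for ribosomal proteins, fell (-0.21, SE 0.04, adjusted p = 9.48e-04). None of these lists had a gene called in WT nicotine against WT water, in DKO nicotine against DKO water or in the interaction.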

How the data were processed

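The deposited FPKM values, 1 table a library, were used as the authors made them; no source used here names the aligner or counter. Per the labels' protocols, libraries were made with a stranded TruSeq mRNA kit, and per the submitters' processing notes the build was GRCm38.p6. All values of genes with a recovered length were whole reads within 0.02. Genes at 1 FPKM or more in at least 3 libraries (12728) were fitted as log2(FPKM + 1) with limma 3.58.1 (R 4.3.3), 4 group means, an intensity trend and Benjamini-Hochberg adjustment over all of them, with calls at 0.05. Log2 changes are on that scale and understate those of low genes. The fit was tested on simulated data. Counts were made with Python and pandas. Members and lists were chosen with earlier results of these data known. Named genes were the highest and lowest by level, those with the smallest p in each comparison, paralogue pairs, P-stalk, X-linked genes and Rpsa; Rpl34, Rps27l, Rpl5, Rpl14, Rpl12, Rpl4 and the copies were chosen with their values in view, as were other genes given only as examples. RP pseudogene rows were 2, of which 1 was tested. The labels do not say that replicate numbers pair the groups, and the main fit did not pair them. Rescaling by median of ratios, other filters and pseudocounts, a replicate block and leaving out each library were tried; voom, and rescaling combined with the block or with leaving out a library, were added after seeing the data. Of the set, 1 gene is not reported by name here and is left out of the plot of changes; it stays in the counts and fits.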

Additional observations from a re-analysis of the deposited data

Results flagged for a closer look

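Rpl34 in WT water libraries was the 1 value among 45 tested groups of 4 libraries (14 named genes and the share of the set, in the 3 groups of 4) in which a library stood far from the others. The highest library, replicate 2, had 62.9 FPKM, and its gap to the next was 0.943 of the group's whole range, above the critical value of 0.829. Chance marks about 1 group in 20. Its Rpl34-ps1 value, 6.69 FPKM, was also apart from the 31.5 to 33.2 FPKM of the other WT water libraries.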

How the results depend on the processing

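The count of ribosomal protein genes called higher depended on the scale. In DKO water against WT water it was 40 as deposited, 20 after median-of-ratios rescaling, 20 with factors made without the ribosome lists, 24 with each library scaled to the same total, 21 by voom on recovered reads with median-of-ratios factors and 21 with rescaling and a replicate block. In DKO nicotine against WT nicotine it was 30 as deposited, 15 after median-of-ratios rescaling and 15 with factors made without the ribosome lists. It was 24 with each library scaled to the same total and 16 by the same voom fit. With rescaling and a replicate block it was 13, and the median change of the set moved to 0.068. Leaving out 1 library gave 19 to 45 genes in water and 15 to 42 in nicotine. The cause of these differences was not tested. Rpsa was called lower in both genotype comparisons under every alternative run. In WT nicotine against WT water, DKO nicotine against DKO water and the interaction, 0 genes of the set were called. The replicate block on the deposited scale changed no count by more than 1.5 times; same-numbered libraries had correlations of -0.214 to 0.165. Of single named genes, Rps4x in nicotine lost its call under each fit of all 15 libraries with median-of-ratios factors (adjusted p = 0.051 to 0.10). Rps27l in nicotine gained one without WT nicotine replicate 3 (+0.29, adjusted p = 0.046). Depth limits Rpl32l, at about 9.67 reads a library.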
